A study of Mus musculus with 6 samples.

Results

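The Eph receptors studied here are 10 genes, Epha3 to Epha7, Ephb1 to Ephb4 and Ephb6, followed in the uninjured spinal cord of mice without Nogo-A and of wild type mice. Every probe set that the platform annotation assigns to exactly 1 of these genes was taken, which gave 22 of the 45101 probe sets on the array and 9 of the 10 genes. The annotation used here assigns no probe set to Ephb2, which is therefore not analysed here. The EphA class had 18 probe sets in 5 genes and the EphB class had 4 probe sets in 4 genes. Of the 22, 13 were bright enough to be tested and 9 were not, and the 13 stand for 6 genes.

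The 3 Nogo-A knockout mice and the 3 wild type mice were untreated males on the C57Bl/6 strain, aged 4 months, with 1 Affymetrix Mouse 430 2.0 array for each spinal cord. The sources used here give neither the knockout allele nor whether the animals were littermates. The study asked how loss of Nogo-A changes gene expression in the intact cord. Nogo-A, a product of the gene Rtn4, sits in the membranes of oligodendrocytes and neurons and limits the growth of axons.

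Eph receptors are receptor tyrosine kinases that bind ephrins on the surface of neighbouring cells, so that signals pass at cell contacts and in both directions. EphA receptors mainly bind ephrin-A ligands, which are held in the membrane by a lipid anchor, and EphB receptors mainly bind ephrin-B ligands, which span the membrane, while EphA4 binds both kinds. In the nervous system this contact usually repels growth cones. EphA4 is known to keep axons of the mouse corticospinal tract and of spinal interneurons from crossing the spinal midline, where ephrin-B3 is displayed.

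Values are intensities in arbitrary units that the authors had already scaled to a common level on each array. Intensities of different probe sets are not compared as levels, since each probe set has its own response. Differences are knockout minus wild type on the log2 scale, tested with limma, with p-values adjusted by the Benjamini-Hochberg method over all tested probe sets. A probe set was tested where at least 2 of the 3 arrays of a genotype read at or above the array's median. Whole cord was measured, so fewer cells of a type and less RNA per cell cannot be told apart.

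The check of the labels came from Rtn4. Its probe set 1437224_at read 78.2, 9.17 and 5.08 in knockout cords, against 3560.2, 2790.4 and 2802 in wild type cords (limma adjusted p = 0.0151). The 4 other probe sets of Rtn4 were brighter on every knockout array than on every wild type array, and the part of the gene each one covers is not given in the sources used here. The arrays were alike in their trimmed means but not in their dim signals. The median intensity was 144.1 to 149.3 on knockout arrays and 148.2 to 195.6 on wild type arrays, and the 5th percentile was 4.57 to 4.92 on knockout arrays and 5.26 to 19.98 on wild type arrays. Wild type replicate 3 had the lowest mean correlation with the other arrays, 0.930, against 0.952 to 0.961. For some tested probe sets of Epha4, Epha5, Epha7, Ephb3 and Efna5 the value without it is given as well. The other ephrin probe sets are given with all arrays only, and this array may move their differences too.

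No Eph receptor probe set passed the test of a difference between the genotypes. Of the 13 tested, 0 passed an adjusted p under 0.05 in either direction in limma, where over all 23525 tested probe sets 0% were called higher and 0.00425%, 1 probe set, were called lower. At an unadjusted p under 0.05, 0 of the 13 were higher and 0 were lower, where 4.31% of all tested probe sets were higher and 3.98% lower. The test named in the series' design, at an unadjusted p under 0.05 and a fold of at least 1.2, also called 0 of the 13 in either direction, against 2.24% higher and 2.59% lower over all tested probe sets. Adjusted p-values of the 13 in limma lay between 0.678 and 0.976. Their log2 differences ran from -0.52 to 0.68 with a median of -0.045, and the median over all tested probe sets was 0.0079.

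The intervals bound the size of any difference on the deposited scaling only. Division of each array by its median, an alternative scaling, adds a constant to every difference. The 95% interval of the difference lay wholly within a 2-fold change either way for 9 of the 13 probe sets, and within a 1.5-fold change for 4 of them, 2 of Epha4, 1 of Epha5 and the single one of Ephb1. It lay within a 1.2-fold change for 0 of the 13. Over all tested probe sets these shares were 83.6%, 52.7% and 2.76%. The standard error of the 13 was 0.12 to 0.47 with a median of 0.22, against a median of 0.18 over all tested probe sets.

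**Figure D1:**
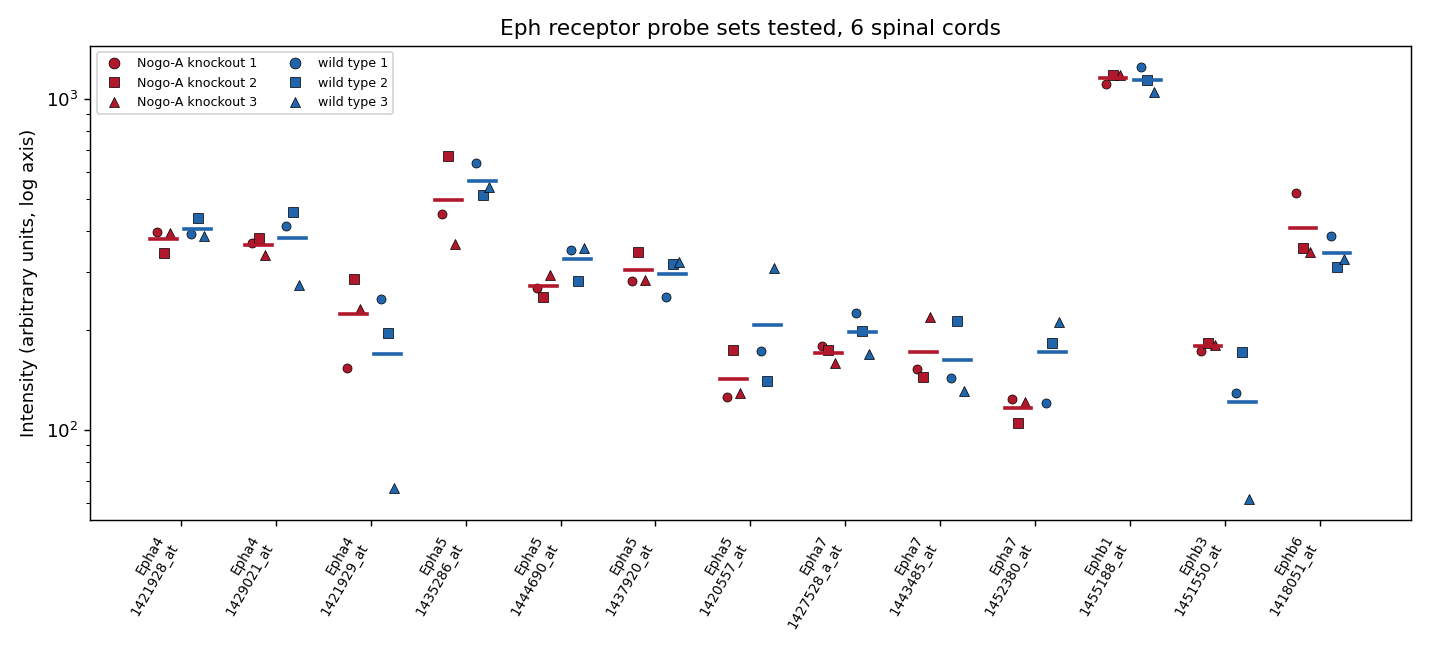
Intensities of the 13 tested Eph receptor probe sets in the 3 Nogo-A knockout (red, left) and 3 wild type (blue, right) spinal cords, on a log axis in arbitrary units, with marker shapes for replicates and bars for group means. The genotypes overlap at 12 of the 13 probe sets. The exception is Ephb3, where the lowest knockout array read 173 and the highest wild type array, replicate 2, read 171. Wild type replicate 3 read 61.9 there.

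Epha4, the receptor that limits midline crossing of mouse spinal axons, was tested at 3 of its 5 probe sets. Probe set 1421928_at read 395, 343 and 394 in knockout cords, against 392, 436 and 385 in wild type cords. That is 377 ± 29.9 in knockout cords and 404 ± 27.9 in wild type cords (SD, n = 3 each), a log2 difference of -0.10 with a 95% interval of -0.46 to 0.26 (limma adjusted p = 0.886). The genotypes overlapped, with knockout replicate 2 the lowest and wild type replicate 2 the highest. Probe set 1429021_at read 366, 381 and 337 in knockout cords, against 414, 455 and 274 in wild type cords. Its lowest and its highest value were both wild type, and the log2 difference was -0.045 (95% interval -0.51 to 0.42, limma adjusted p = 0.967). On the deposited scaling the intervals of both probe sets leave out a 1.5-fold change in either direction. With each array divided by its median the log2 differences were 0.12 and 0.18, and intervals on that scaling are not given here.

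The third probe set of Epha4 pointed the other way, and 1 array set its size. Probe set 1421929_at read 153, 285 and 232 in knockout cords, against 248, 196 and 66.7 in wild type cords. The log2 difference was 0.55 with a 95% interval of -0.48 to 1.58 (limma adjusted p = 0.759). Wild type replicate 3 was the lowest of the 6 arrays by a wide margin, and knockout replicate 1 lay below the other 2 wild type arrays. Without wild type replicate 3 the log2 difference was -0.026 (limma adjusted p = 0.985). The same array was the lowest at 1429021_at, where leaving it out gave -0.27 (limma adjusted p = 0.553). The 2 remaining probe sets of Epha4 were too dim to test. Probe set 1439757_s_at read 153, 88.7 and 126 in knockout cords, against 132, 203 and 192 in wild type cords, between 59.4% and 120% of its array's median, and 1456863_at read 26.4, 5.44 and 60.9 in knockout cords, against 9.43, 22.7 and 16.98 in wild type cords. Over the 6 arrays the 3 tested probe sets of Epha4 did not follow each other closely, with Pearson correlations of log2 intensity of -0.17, 0.34 and 0.74, given as a description over arrays that share their scaling.

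Epha5, a receptor for ephrin-A ligands in axon mapping, was tested at all 4 of its probe sets. Probe set 1435286_at read 449, 674 and 364 in knockout cords, against 642, 511 and 542 in wild type cords. Knockout cords held both the highest and the lowest value, and the log2 difference was -0.23 (95% interval -0.71 to 0.24, limma adjusted p = 0.781). Without knockout replicate 2, the highest, it was -0.48 with an unadjusted p of 0.0343 and an adjusted p of 0.720 in limma. Probe set 1444690_at read 268, 252 and 295 in knockout cords, against 351, 282 and 354 in wild type cords. Knockout replicates 1 and 2 lay below every wild type cord, while knockout replicate 3 lay above wild type replicate 2. The log2 difference was -0.27, or 0.828-fold with a 95% interval of 0.613 to 1.12 (limma adjusted p = 0.712).

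The other 2 probe sets of Epha5 did not share a direction. Probe set 1437920_at read 282, 344 and 283 in knockout cords, against 252, 317 and 322 in wild type cords, with a log2 difference of 0.033 (95% interval -0.41 to 0.48, limma adjusted p = 0.976). The genotypes were interleaved there. Probe set 1420557_at read 125, 174 and 129 in knockout cords, against 173, 140.2 and 309 in wild type cords, with a log2 difference of -0.47 (95% interval -1.27 to 0.33, limma adjusted p = 0.734). Wild type replicate 3 stood above the 5 other arrays at that probe set, which was tested through the wild type arrays alone and did not reach the limit for testing without wild type replicate 1 or 3. With no limit for testing, its log2 difference was -0.14 without wild type replicate 3 (limma adjusted p = 0.933). Across the 4 probe sets of Epha5 the 6 pairwise correlations over the arrays ran from -0.44 to 0.63.

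Epha7, which in mouse is also made as short forms without the kinase, was tested at 3 of its 4 probe sets. Probe set 1427528_a_at read 179.6, 175 and 159 in knockout cords, against 225, 199 and 169.8 in wild type cords, a log2 difference of -0.20 (95% interval -0.81 to 0.41, limma adjusted p = 0.860). Wild type replicate 3 lay among the knockout values and the other 2 wild type cords lay above them. Probe set 1443485_at read 153, 144 and 219.6 in knockout cords, against 143, 213 and 131 in wild type cords, a log2 difference of 0.09 (95% interval -0.66 to 0.84, limma adjusted p = 0.958). Each genotype had 1 cord well above its other 2 at this probe set. Probe set 1452380_at read 124, 105 and 121 in knockout cords, against 120.3, 183 and 212 in wild type cords. Its log2 difference of -0.52 was the lowest of the 13 (95% interval -1.35 to 0.30, limma adjusted p = 0.708), and wild type replicate 1 lay within the knockout values. All 3 knockout cords read under their array's median there, so the probe set was tested through the wild type arrays alone. It did not reach the limit for testing without wild type replicate 2 or 3. With no limit for testing, its log2 difference was -0.35 without wild type replicate 3, the highest array (limma adjusted p = 0.828). The fourth probe set, 1451991_at, read 75.9, 81.7 and 107 in knockout cords, against 106, 105 and 64.8 in wild type cords, under the array medians throughout. Which splice forms each probe set reads is not given in the sources used here.

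Ephb1, an ephrin-B receptor of axon guidance, gave the most precise value of the family. Its probe set 1455188_at read 1113, 1182 and 1182 in knockout cords, against 1247, 1141 and 1049 in wild type cords. The means were 1159 ± 39.6 in knockout cords and 1146 ± 98.7 in wild type cords (SD, n = 3 each), and the difference was 1.01-fold with a 95% interval of 0.849 to 1.21 (limma adjusted p = 0.976). The knockout values lay inside the wild type range. Among named genes with a tested probe set, those with the pattern most like Ephb1 over the 6 arrays were Matr3, Sec62 and Fam169a, with Pearson correlations of log2 intensity of 0.996, 0.995 and 0.992. Over 23525 probe sets and 6 arrays such values are a description only.

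Ephb3, which acts with other EphB receptors in guiding commissural axons of the mouse brain, was the one tested member with no overlap between the genotypes. Its probe set 1451550_at read 173, 183 and 180.0 in knockout cords, against 129, 171 and 61.9 in wild type cords. The means were 179 ± 4.76 in knockout cords and 121 ± 55.3 in wild type cords (SD, n = 3 each), a log2 difference of 0.68 with a 95% interval of -0.26 to 1.63 (limma adjusted p = 0.678, unadjusted p = 0.138). The knockout cords were close together, and the lowest of them stood just above wild type replicate 2, at 173 against 171. In all, 1 of the 13 lay higher in knockout without overlap and 0 lay lower, where 7.85% and 6.62% of all tested probe sets did so. Wild type replicate 3 set much of the difference, and without it the log2 difference was 0.26 (limma adjusted p = 0.760). Without wild type replicate 2 it was 0.997 on the log2 scale, with an unadjusted p of 0.0452 and an adjusted p of 0.828 in limma. The probe set was tested through the knockout arrays alone, since only 1 wild type array read above its median.

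Ephb6, a member of the family whose kinase is inactive, was tested at its single probe set. Probe set 1418051_at read 519, 355 and 346 in knockout cords, against 386, 311 and 329 in wild type cords. The means were 407 ± 97.8 in knockout cords and 342 ± 39.1 in wild type cords (SD, n = 3 each), and the difference was 1.17-fold with a 95% interval of 0.858 to 1.60 (limma adjusted p = 0.770). Knockout replicate 1 stood above the other 5 arrays, which overlapped, and without it the log2 difference was 0.038 (limma adjusted p = 0.988).

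**Figure D2:**
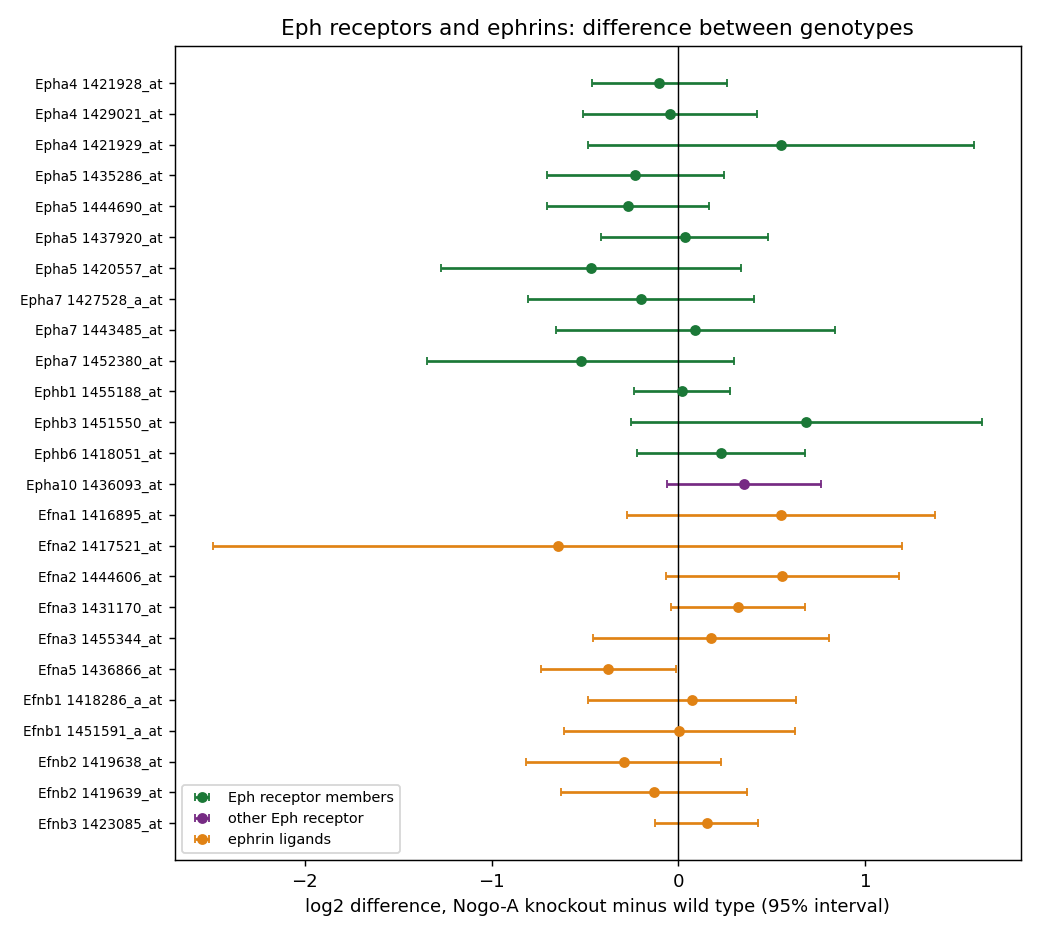
Log2 differences, knockout minus wild type, with 95% intervals from limma, for the 13 tested Eph receptor probe sets (green), Epha10 (purple) and the tested ephrin probe sets (orange). The intervals of all 13 Eph receptor probe sets include 0, and that of Efna5 1436866_at lies below it.

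The signs of the differences, none of which passed, are given by class as a description. In the EphA class 7 of the 10 tested probe sets had a negative difference, with a class median of -0.15, and in the EphB class 3 of 3 had a positive one, with a class median of 0.23. Over all tested probe sets 48.6% were negative and 51.4% positive. The difference between the classes was not tested, probe sets of a gene share their target, and the EphB count rests on 3 genes. The counts moved with single arrays and with the scaling. In the EphA class 5 of 9 tested probe sets were negative without wild type replicate 2, and 7 of 8 without wild type replicate 3. In the EphB class 2 of 3 were positive without wild type replicate 3, and 3 of 3 without any other array. With each array divided by its median, which puts the median of all tested probe sets at 0.23, 4 of the 10 EphA probe sets were negative, and 7 of the 10 lay below that median. After quantile normalization 5 of the 10 EphA probe sets were negative and 2 of the 3 EphB probe sets positive, with Ephb1 at -0.0047. Of the 13, 9 passed the limit for testing in both genotypes, 2 through knockout alone and 2 through wild type alone. The 4 that passed through 1 genotype alone all read higher in that genotype, as the limit favours, and they were Epha5 1420557_at, Epha7 1452380_at, Epha7 1443485_at and Ephb3. Without those 4, 5 of 7 EphA probe sets had a negative difference and 2 of 2 EphB probe sets a positive one.

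**Figure D3:**
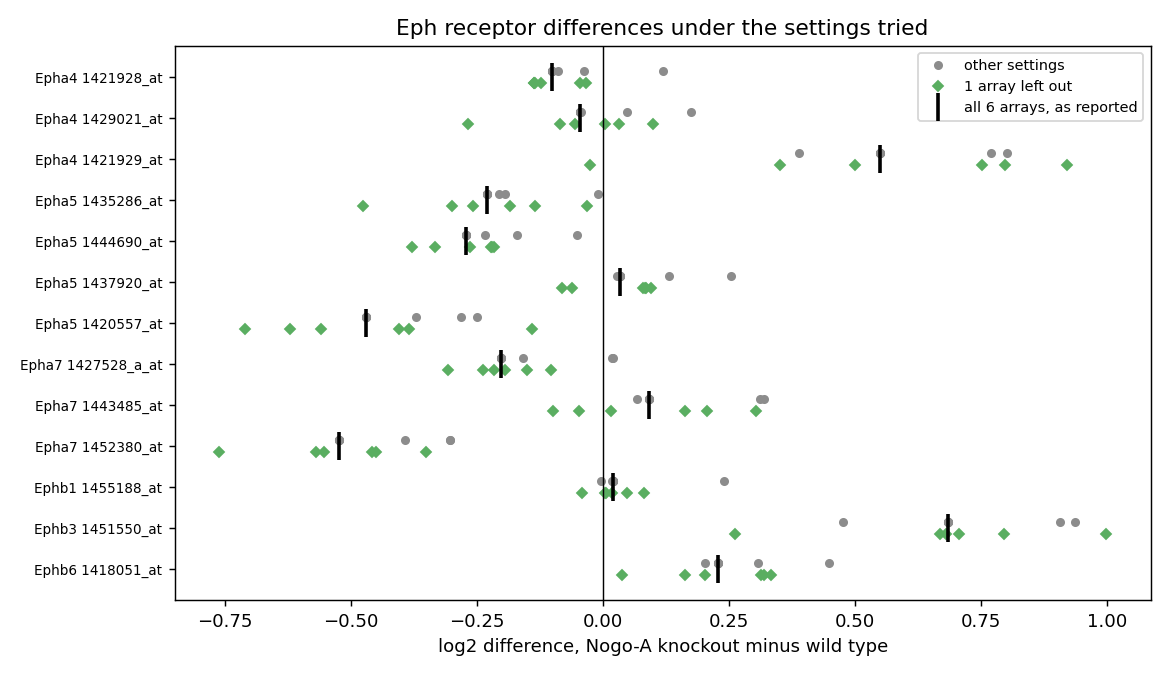
Log2 differences, knockout minus wild type, of the 13 tested Eph receptor probe sets with all 6 arrays (black bars), with 1 array left out (green, with no limit for testing where the probe set otherwise dropped out) and under the other settings tried (grey). Epha4 1421929_at ran from -0.026 to 0.92 and Ephb3 from 0.26 to 0.997, while Ephb1 ran from -0.042 to 0.24.

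The remaining members were dim in both genotypes. Epha3, a receptor with high affinity for ephrin-A5, had 4 probe sets, all under the median of their array on all 6 arrays. The brightest, 1455426_at, read 66.8, 83.2 and 98.5 in knockout cords, against 59.5, 112 and 138 in wild type cords. Probe set 1425575_at read 48.7, 43.3 and 40.9 in knockout cords, against 52.6, 29.4 and 94.8 in wild type cords, and 1426057_a_at read 46.9, 7.23 and 67.8 in knockout cords, against 16.7, 75.2 and 60.2 in wild type cords. The genotypes overlapped at each of these. Probe set 1425574_at of Epha3 read 4.34, 36.2 and 75.5 in knockout cords, against 8.91, 15.5 and 20.6 in wild type cords, and 1 knockout cord lay below all wild type cords there while 2 lay above them. Knockout cords alone spread from 7.23 to 67.8 at 1426057_a_at.

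Epha6, a receptor that in mouse takes part in mapping retinal axons, read 139, 166 and 71.1 in knockout cords, against 98.1, 119 and 157 in wild type cords at its probe set 1421527_at. Only knockout replicate 2 read above its array's median, and the genotypes overlapped. Ephb4, the receptor of venous endothelium that pairs with ephrin-B2 of arteries, read 15.001, 10.96 and 10.4 in knockout cords, against 10.2, 39.98 and 34.04 in wild type cords at 1449845_a_at. Wild type replicates 2 and 3, which stood highest there, were also the arrays with the brightest dim signals, with 5th percentiles of 10.5 and 19.98 against 4.57 to 5.26 on the other 4 arrays. The part of these dim signals in the Ephb4 values was not tested. On its array Ephb4 ranked between percentiles 9.88 and 20.7.

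**Figure D4:**
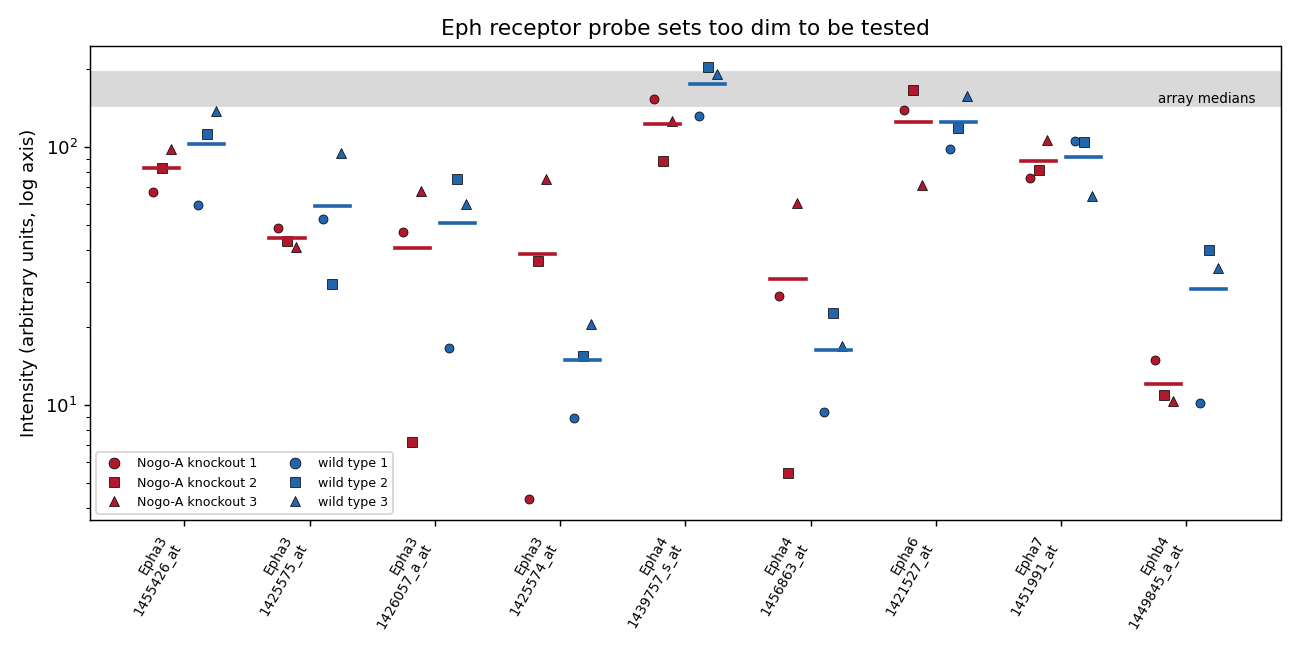
Intensities of the 9 Eph receptor probe sets that were too dim to be tested, in Nogo-A knockout (red, left) and wild type (blue, right) spinal cords, on a log axis in arbitrary units, with bars for group means and a grey band for the range of array medians. Only Epha4 1439757_s_at and Epha6 reach the median of an array, the first on 1 knockout and 1 wild type array and the other on 1 knockout array.

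The other genes of the pathway gave no call either. Of the Eph receptors outside the 10, Epha1, Epha2 and Epha8 were too dim to test and Epha10, another member with an inactive kinase, was tested. Epha10 read 332, 423 and 466 in knockout cords, against 310.0, 339 and 301 in wild type cords, a log2 difference of 0.35 (95% interval -0.064 to 0.76, limma adjusted p = 0.639). Knockout replicate 1 lay within the wild type range and the other 2 knockout cords lay above it.

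Of the 8 ephrin ligands, 7 had a tested probe set, and Efna4 had none. With each gene read at its brightest tested probe set, 0 of the 7 passed the adjusted threshold, 0 were higher and 1 was lower at an unadjusted p under 0.05 in limma, where 4.31% of all tested probe sets were higher and 3.98% lower. Their median log2 difference was 0.15. The one was Efna5, which encodes ephrin-A5, a repellent ligand of EphA receptors. It read 443, 559 and 495 in knockout cords, against 551, 647 and 748 in wild type cords at 1436866_at, with a log2 difference of -0.37 (unadjusted p = 0.0426, adjusted p = 0.599 in limma). Without wild type replicate 3, the highest array, the log2 difference was -0.27 (unadjusted p = 0.128, adjusted p = 0.534 in limma), and the unadjusted p was also above 0.05 without knockout replicate 1 or 3 or wild type replicate 2. Knockout replicate 2 lay just above wild type replicate 1, and the other knockout cords lay below all wild type cords. The other probe set of Efna5 read 58.4, 42.5 and 69.2 in knockout cords, against 69.005, 69.8 and 138 in wild type cords and was too dim to test. Efnb3, which encodes ephrin-B3, the midline ligand of EphA4, read 1634, 1507 and 1861 in knockout cords, against 1579, 1317 and 1608 in wild type cords, a difference of 1.11-fold with a 95% interval of 0.918 to 1.34 (limma adjusted p = 0.748). Efna3, which encodes ephrin-A3, read 746, 677 and 866 in knockout cords, against 599, 515 and 728 in wild type cords at 1431170_at, with overlap between the genotypes and a log2 difference of 0.32 (limma adjusted p = 0.624). Efna2 was read by 2 tested probe sets with opposite signs, 0.56 at 1444606_at and -0.65 at 1417521_at, and neither passed (limma adjusted p = 0.625 and 0.852). Probe set 1417521_at read 109, 105 and 50.7 in knockout cords, against 27.8, 268 and 298 in wild type cords. It was tested through the wild type arrays alone. At 1444606_at knockout cords lay higher without overlap, as at 7.85% of all tested probe sets.

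Of 33 signalling partners of Eph receptors, 31 had a tested probe set. At the brightest tested probe set of each gene, 0 of 31 passed the adjusted threshold in limma, 3 were higher and 0 lower at an unadjusted p under 0.05, and the median log2 difference was 0.018. Over all 69 tested probe sets of these genes, 4 were higher and 1 lower by the same measure, beside the shares of 4.31% and 3.98% over all tested probe sets, and the median was 0.00050. The 3 genes were Grb2, an adaptor protein, Rac1, a GTPase of the actin skeleton, and Cdk5, a kinase that acts below EphA4 on the exchange factor ephexin. Grb2 read 1489.6, 1342 and 1246 in knockout cords, against 1266, 989 and 982 in wild type cords, a log2 difference of 0.34 (limma adjusted p = 0.594), at 1449111_a_at. Its other tested probe set, 1418508_a_at, had a log2 difference of 0.014 (limma adjusted p = 0.988). Rac1 read 14825, 14882 and 16200.2 in knockout cords, against 13863, 13396 and 12829 in wild type cords at 1451086_s_at, a log2 difference of 0.20 (limma adjusted p = 0.595). All 3 knockout cords lay above the wild type cords for Rac1, and the genotypes overlapped for Grb2. At 1423734_at the log2 difference of Rac1 was 0.24 (limma adjusted p = 0.594), again with no overlap. Cdk5 read 2446, 2475 and 2752 in knockout cords, against 2327, 2063 and 2097 in wild type cords at 1450674_at, a log2 difference of 0.24, and the reverse at 1422590_at with -0.48, where it read 370.4, 343 and 371 in knockout cords, against 465, 492 and 557 in wild type cords (limma adjusted p = 0.596 and 0.591). The second probe sets of Grb2, Rac1 and Cdk5 were named after their values were seen. Arhgef15, an exchange factor that EphB2 restrains, was next by p, with a log2 difference of -0.57 at 1455522_at (limma adjusted p = 0.605), while its other tested probe set, 1440358_at, had -0.022 (limma adjusted p = 0.987).

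Markers of other cells also varied between the arrays, and their part in the Eph receptor values was not tested. Each marker gene was read at its brightest tested probe set. The counts below stand beside 4.31% of all tested probe sets higher and 3.98% lower at an unadjusted p under 0.05 in limma. With the filter at the 75th percentile, which keeps brighter probe sets, 779 of 11676 were higher and 245 lower by that measure. Of those 11676, 62.2% had a positive log2 difference, against 51.4% of all tested probe sets. Skeletal muscle genes, 6 of 7 tested, summed to 1567 to 12184 on knockout arrays and 1043 to 6191 on wild type arrays, with knockout replicate 2 and wild type replicate 3 highest. None of the 6 passed (smallest limma adjusted p = 0.774). Endothelial genes, 7 of 7 tested, summed to 3762 to 4806 on knockout arrays and 3987 to 6249 on wild type arrays, again highest on wild type replicate 3, and 0 were higher and 1, Pecam1 of endothelial junctions, was lower at an unadjusted p under 0.05 (limma adjusted p = 0.594). Of the neuron markers, 10 of 10 were tested, 4 were higher and 0 lower at an unadjusted p under 0.05, and 0 passed the adjusted threshold in limma. Their summed intensity was 129850.4 to 135302 on knockout arrays and 108882 to 129988 on wild type arrays, lowest on wild type replicate 3. Oligodendrocyte markers, 7 of 8 tested, had 3 higher and 0 lower by the same measure, and sums of 121946 to 134973 on knockout arrays and 106564 to 110512 on wild type arrays. Precursor markers of the same lineage, 5 of 6 tested, had 1 higher and 0 lower, and sums of 15258 to 15787 on knockout arrays and 11889.8 to 13902 on wild type arrays. The sums of both lists were higher on every knockout array than on every wild type array. The same held for the Schwann cell, meningeal and motor neuron lists. For motor neurons the lowest knockout sum was 2105 and the highest wild type sum 2082. Each of the 3 tested motor neuron genes overlapped between the genotypes. Of the tested genes, 5 of 7 oligodendrocyte and 5 of 5 precursor markers had a positive log2 difference. Olig1 held most of the precursor sum, with means of 12105 in knockout cords and 9759 in wild type cords. Olig1 and Olig2 did not overlap between the genotypes, while Gpr17 and Cspg4 did. Over all tested probe sets 7.85% were higher in knockout without overlap. Schwann cell markers, 4 of 6 tested, had 2 higher and 0 lower, and sums of 16789.8 to 23496 on knockout arrays and 14051 to 16417 on wild type arrays. Pmp22 held most of that sum, with means of 18390 in knockout cords and 13372 in wild type cords. Of the 4 genes 3 had a positive log2 difference, and Egr2 had one of -0.32 (limma adjusted p = 0.703). Meningeal and fibroblast markers, 7 of 7 tested, had 4 higher and 1 lower, and sums of 10671 to 11835 on knockout arrays and 7721 to 9432 on wild type arrays. Collagen genes led this list, with Col1a1 at a log2 difference of 0.98 (limma adjusted p = 0.591). Motor neuron markers, 3 of 6 tested, had 1 higher and 0 lower, astrocyte markers 0 and 0 of 7, and microglia markers 0 higher and 1 lower of 7. No marker gene of the 10 cell type lists passed the adjusted threshold. Some neuron and glial markers of the labelled tissue read far above the array medians. Among them was Mbp, which encodes myelin basic protein, at 46224 to 52806 on knockout arrays and 38048 to 40152 on wild type arrays. Others read near or under the medians, such as Trem2 of microglia, at 161 to 170 on knockout arrays and 32.7 to 222 on wild type arrays.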

How the data were processed

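The deposited values are intensities on a linear scale, 1 for each of 45101 probe sets and 6 arrays, made by the authors with MAS 5.0 and GCOS 1.4, per the submitters' processing notes. The array means after trimming were about 500, so a common scaling was already in place, and the authors' later steps in GeneSpring 7.2 are not part of these values. The intensities were converted to log2 without further scaling. The design text's division by the array median was used as an alternative, because it moves the median difference of all tested probe sets to 0.23. The 64 control probe sets were left out. Probe sets at or above the 50th percentile of their array on at least 2 of 3 arrays of a genotype were tested, in place of the authors' filter on present calls.

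The genotypes were compared, knockout minus wild type, in limma 3.58.1 (R 4.3.3) with an intensity trend, Benjamini-Hochberg adjustment over 23525 probe sets and a threshold of 0.05. The code was tested on simulated data. The 3 arrays for each genotype limit the precision, and exact permutation of 1 value reaches a p of 0.1 at best. The platform annotation gave gene names, updated by gene identifier to RefSeq names of GRCm38.p6. Each array is 1 animal, and no batch is given in the sources used here. All Eph receptor and Rtn4 probe sets are named. Of other lists, up to 4 genes with the smallest p could be named, and for likeness of pattern the 3 genes most correlated with the brightest member. The members, lists and settings were chosen with earlier results of these data known. Lists of motor neuron, precursor, astrocyte, microglia, Schwann cell and meningeal markers were also read. Settings tried were other scalings, filters, an offset of 50, no trend, a replicate block, the design text's test and each array left out.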

Additional observations from a re-analysis of the deposited data

How the results depend on the processing

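No Eph receptor probe set passed an adjusted p under 0.05 under any of the 15 alternatives, and the lowest adjusted p of a member was 0.364 in limma, for Epha7 1452380_at without wild type replicate 1. At an unadjusted p under 0.05 in limma, the member counts stayed at 0 in both directions except when an array was left out, where higher and lower counts each ran from 0 to 1. The lone higher one was Ephb3 without wild type replicate 2, and the lone lower one was Epha5 1435286_at without knockout replicate 2. The median difference of the members, -0.045 on the log2 scale, was 0.18 with each array divided by its median, when the median of all tested probe sets was 0.23. With 1 array left out it ran from -0.096 to 0.052. The sign of the log2 difference changed under at least 1 alternative at 7 of the 13 probe sets, always without passing an unadjusted p of 0.05. With each array divided by its median it became 0.12 at Epha4 1421928_at, 0.18 at Epha4 1429021_at and 0.019 at Epha7 1427528_a_at. Quantile normalization gave 0.017 at Epha7 1427528_a_at, 0.048 at Epha4 1429021_at and -0.0047 at Ephb1. With 1 array left out the range was -0.026 to 0.92 at Epha4 1421929_at, -0.27 to 0.099 at Epha4 1429021_at, -0.081 to 0.096 at Epha5 1437920_at, -0.048 to 0.30 at Epha7 1443485_at and -0.042 to 0.082 at Ephb1. With no filter for probe sets that the filter then dropped, a combination chosen after seeing the data, Epha7 1443485_at was at -0.098 without knockout replicate 3. Division by the median adds a constant to every difference. The cause of the other changes was not tested.

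Over all tested probe sets, 1 passed with all 6 arrays in limma, against 0 without the trend (696 higher and 1139 lower at an unadjusted p under 0.05) and 0 in the design text's test after Benjamini-Hochberg adjustment (936 higher and 746 lower unadjusted). With 1 array left out the count ran from 0 to 9. It was 0 without knockout replicate 2 (855 higher and 729 lower unadjusted) and without wild type replicate 2 (745 higher and 565 lower unadjusted), 9 without wild type replicate 1 and 3 without wild type replicate 3. With the replicate block it was 4. No label says that a shared number pairs the animals. Same-numbered arrays had correlations of their deviations of -0.035, 0.074 and 0.11, and not every array correlated best with its own number. The filter at the 75th percentile left Ephb1 alone among the members. With no filter the 9 dim probe sets of Epha3, Epha4, Epha6, Epha7 and Ephb4 had log2 differences of -1.01 to 0.69 (limma adjusted p of 0.707 to 0.987). Of the 9, 7 were negative, where 59.97% of all probe sets in that fit were negative. The share among dim probe sets alone is not given here, so the 7 are a description only. At the 25th percentile 6 of the 9 also entered the fit.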

Other observations

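Among the 40 probe sets of pathway genes outside the 10 receptors that were too dim to test, 1 was higher and 4 were lower in knockout cords with no overlap between the genotypes, or 2.50% and 10%. Over all 21512 probe sets too dim to test the shares were 2.05% higher and 11.96% lower. All 5 are named here after their values were seen. Epha8, an EphA receptor, read 30.1, 7.47 and 19.5 in knockout cords, against 99.5, 67.8 and 96.4 in wild type cords. Efna4, which encodes ephrin-A4, read 36.7, 26.1 and 11.6 in knockout cords, against 72.1, 75.6 and 41.7 in wild type cords. Both thus lay lower on every knockout array, with wild type replicate 1 the highest array for Epha8. Abl1, a tyrosine kinase, read 4.17, 13.3 and 18.2 in knockout cords, against 49.1, 22.8 and 122 in wild type cords at 1444134_at. Pick1, a scaffold protein with a PDZ domain, read 4.49, 5.91 and 16.01 in knockout cords, against 18.99, 22.6 and 53.98 in wild type cords at 1454530_at. Dlg4, which encodes the postsynaptic scaffold PSD-95, was the higher one and read 107, 103 and 103 in knockout cords, against 35.7, 19.3 and 60.97 in wild type cords at 1460261_at. All values of the 5 probe sets were under the median of their array. The 5th percentile of the array was 10.5 and 19.98 on wild type replicates 2 and 3, against 4.57 to 5.26 on the other 4 arrays, and its part in these values was not tested.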
